A study of Caenorhabditis elegans with 26 samples.

Results

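The comparison sets XX embryos with sdc-2 targeted by mutation and RNA interference against wild-type XX embryos grown on the same kind of plate. It uses 6 of the 26 arrays of the series, chosen by their titles. The sdc-2 group holds 3 arrays of embryos whose mothers carried the allele sdc-2(y93) and ate bacteria of a feeding library with an sdc-2 plasmid, so that a mutation and RNA interference act on the same gene. The control group holds 3 arrays of embryos from N2, the wild-type strain, fed bacteria whose plasmid had no insert. The embryos of both groups were released from egg-bearing adults with bleach, and their RNA was labelled with biotin and hybridised to Affymetrix expression arrays. The replicates are described as biological in the series text and are named A, B and C here, after their titles. All 3 arrays of a group share a date in their titles and the 2 groups have different dates, so genotype, RNA interference and date cannot be told apart. The labels do not describe the y93 lesion or say what share of each sample any embryonic stage made up.

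In C. elegans, animals with a pair of X chromosomes (XX) are hermaphrodites and animals with a single X (XO) are males. SDC-2 is the XX-specific protein that brings the dosage compensation complex, a condensin-like assembly that contains DPY-27, to both X chromosomes, where the complex lowers transcription. SDC-2 also represses her-1, an autosomal gene that directs male development, and is itself turned off in XO embryos by xol-1. The question here is how expression across the genome differs under sdc-2 mutation and RNA interference, by chromosome, by level and by gene group.

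Values are log2 levels, on which a difference of 1 is a doubling. Each of 17118 genes was represented by its brightest probe set, the group of short probes that reports a transcript, and 2360 of the genes are X-linked, 14750 autosomal and 8 mitochondrial. The 6 arrays had medians of 6.65 to 6.73, and upper quartiles of 8.99 to 9.02 in the controls and 8.78 to 8.97 in the sdc-2 arrays, of which array B was lowest. Correlations over genes were 0.994 to 0.997 among controls, 0.984 to 0.993 among sdc-2 arrays and 0.958 to 0.978 between the groups. The median SD of a gene over 3 arrays was 0.162 in the sdc-2 group and 0.0863 in the controls. Differences were tested with limma across all genes and called at a Benjamini-Hochberg adjusted p under 0.05, and "rose" and "fell" below refer to such calls, with the standard error (SE) of the difference given beside it.

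The targeted gene was measured by 2 probe sets, which differed in size of change. The brighter probe set of sdc-2 gave 9.37, 9.90 and 9.76 in the sdc-2 arrays A, B and C and 10.1, 9.93 and 10.1 in the controls. The groups did not overlap, but the difference of -0.36 (SE 0.14, adjusted p = 0.106) missed the threshold. The other probe set gave 7.82, 7.95 and 8.14 against 9.42, 9.25 and 9.35, a difference of -1.37 (SE 0.11, adjusted p = 0.00022 over all probe sets). The probe positions were not used here, and a probe set outside the affected stretch checks nothing about the allele.

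Genes that act next to SDC-2 in sex determination carried some of the clearest differences of the comparison. The level of her-1, which encodes a secreted protein that promotes male fate, was 10.06, 9.99 and 10.05 in the sdc-2 arrays and 7.33, 7.37 and 7.39 in the controls. The groups lay far apart with little scatter in either, and her-1 was 6.34-fold higher (2.66, SE 0.08, adjusted p = 4.1e-06). The male switch gene xol-1, which is X-linked, gave 8.70, 9.12 and 8.72 against 6.92, 6.67 and 7.02, a rise of 1.98 (SE 0.15, adjusted p = 0.00019), and 0.48 by its dimmer probe set. The X-linked genes that count X chromosomes by repressing xol-1 rose as well: ceh-39, a homeobox factor, by 1.32 (SE 0.09), fox-1, an RNA-binding protein, by 1.15 (SE 0.12) and sex-1, a nuclear receptor, by 0.52 (SE 0.13, adjusted p = 0.018). The other probe sets of ceh-39 read 0.77 and 0.22, that of fox-1 0.94 and those of sex-1 0.45 and 0.49. The sex-1 levels were 12.10, 11.91 and 11.82 against 11.37, 11.25 and 11.64, and its call was lost without control A, without control B or without sdc-2 array A.

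Of the 21 measured sex determination genes, 10 rose and none fell (1 fell at an unadjusted limma p under 0.05, and none after the re-centring described below), with a median change of 0.27, where 10.8% of all genes rose, 15.4% fell and the median was 0.02. All 4 of the X-linked members rose, and so did 6 of the 17 autosomal ones. Beside her-1 the autosomal rises were gld-1, a germline translational repressor (0.91, SE 0.10), sea-2 (0.86, SE 0.12, but -0.19 by its other probe set), fem-2, a phosphatase (0.46, and -0.31 by its other probe set), fog-2, an F-box protein that binds GLD-1 (0.40), and tra-3, a calpain protease (0.40, and 0.08 by its other probe set). The hermaphrodite-promoting receptor gene tra-2 was measured at 8.86, 8.04 and 8.47 against 8.97, 8.76 and 8.94 (-0.43, SE 0.19, adjusted p = 0.15). Its effector tra-1 showed 0.27 (SE 0.17) and the male tail gene mab-3 -0.04 (SE 0.10), neither past the threshold. 

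The 10 subunits and recruiters of the dosage compensation complex moved both ways. The condensin subunit gene dpy-26 gave 9.32, 9.02 and 9.19 against 9.93, 9.79 and 9.96 and fell by 0.72 (SE 0.11, adjusted p = 0.002), and dpy-30, shared with histone methyltransferase complexes, fell by 0.33 (SE 0.10), a call lost without any 1 of 5 of the arrays. Levels of dpy-27 were 10.84, 10.77 and 10.78 against 11.43, 11.30 and 11.35, a fall of 0.57 (SE 0.09), while its dimmer probe set read 0.30. By contrast dpy-28 (0.60, SE 0.16, lost without control A, control B or sdc-2 array C), the histone demethylase gene dpy-21 (0.53, SE 0.15, also lost without any 1 of 5) and capg-1 (0.49, SE 0.09, but -0.29 by its other probe set) rose. The other probe sets of dpy-28 and dpy-21 read 0.23 and 0.13. The genes sdc-1, sdc-3 and mix-1 stayed short of the threshold at -0.29, -0.01 and -0.25, although the other probe set of sdc-1, of similar level, rose by 0.56 (SE 0.12, adjusted p = 0.01 over all probe sets). The arrays were also re-centred on the median of their autosomal genes above the median level, which raised the median of all genes by 0.28. Of the 3 falls, dpy-26 alone was then still called, at -0.44.

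**Figure D1:**
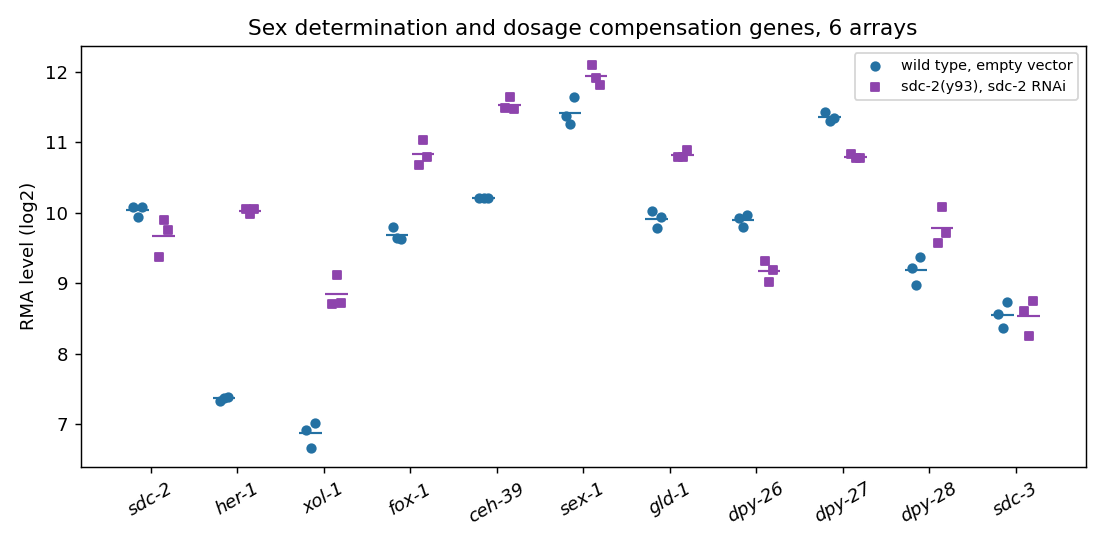
Log2 RMA level of 11 genes of sex determination and dosage compensation on each of the 6 arrays, with circles for wild type, squares for sdc-2 embryos and lines for group means. The groups are farthest apart for her-1 (2.66) and xol-1 (1.98), and those of sdc-3 overlap.

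Across the genome, X-linked genes rose and autosomal genes fell more often. Rises numbered 860 among the 2360 genes of X (36.4%) and 992 among the 14750 genes of the autosomes (6.73%), and falls 51 (2.16%) and 2578 (17.5%). The X chromosome held 13.8% of the genes tested, 46.4% of the 1853 rises and 1.94% of the 2629 falls. Above the median level of all genes, 56.6% of X-linked genes rose and 3.68% fell, against 12% and 32.7% of autosomal genes. The arrays were also re-centred on the median of their autosomal genes above the median level of all genes. The split of all calls then turned to 6179 rises and 1368 falls. Re-centring added 0.28 to every change, while all autosomal genes had a median change of -0.0073 as deposited, so it does not set them to 0. Of 1275 chemoreceptor genes, of which 10 lie above the median level, 365 rose re-centred and 5 as deposited. The direction of small autosomal changes thus depends on the scaling. The excess of rises on X holds under both (1627 of the 2360 X-linked and 4544 of the 14750 autosomal genes rose after re-centring). The count of X-linked falls was 31 without control A and 30 without control C, and that of autosomal rises 648 without control A.

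The shift of X against autosomes was taken per array, as the median over X-linked genes minus that over autosomal genes of each log2 value less the control mean. Among the 8559 genes above the median level of 6.67, it was 0.65, 0.76 and 0.61 in the sdc-2 arrays and -0.02, 0.08 and -0.06 in the controls, so the groups did not overlap. The difference of 0.67 (SE 0.06, n = 3 and 3 arrays) corresponds to a 1.596-fold higher ratio of X to autosomes, and the exact two-sided permutation p was 0.1, the smallest that 3 against 3 arrays allow. Part of it was a rise on X and part a fall elsewhere, in values that RMA had put on 1 scale. X-linked genes had a median change of 0.48 (SE 0.03), with 84.1% above 0, and the autosomes I, II, III, IV and V had medians of -0.18, -0.22, -0.22, -0.16 and -0.21, all with an exact p of 0.1. Array B stood lowest in the sdc-2 group on every autosome, from -0.24 on IV to -0.34 on III, and on X the 3 arrays gave 0.48, 0.46 and 0.49.

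Genes with higher levels showed a larger X shift, up to a plateau. In 5 equal classes of mean level, from dim to bright, the shift was 0.03, 0.09, 0.35, 0.71 and 0.74, and the top class exceeded the bottom one by 0.71 (SE 0.06, exact p = 0.1, the smallest possible). With 10 classes it rose from 0.04 to 0.48 by the sixth, and the 4 brightest classes were level at 0.71 to 0.72. In the bottom class, whose levels of 4.86 to 5.57 lie near the floor of the arrays, 1.29% of X-linked genes rose, and in the top class 67.6% did. Falls of autosomal genes went from 0.0963% of the bottom class to 35.9% of class 4 and 33% of the top class. From class 4 to class 5 the X-linked median went from 0.45 to 0.61 and the autosomal one from -0.27 to -0.13. Both parts thus moved while their difference, the X shift, changed little.

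**Figure D2:**
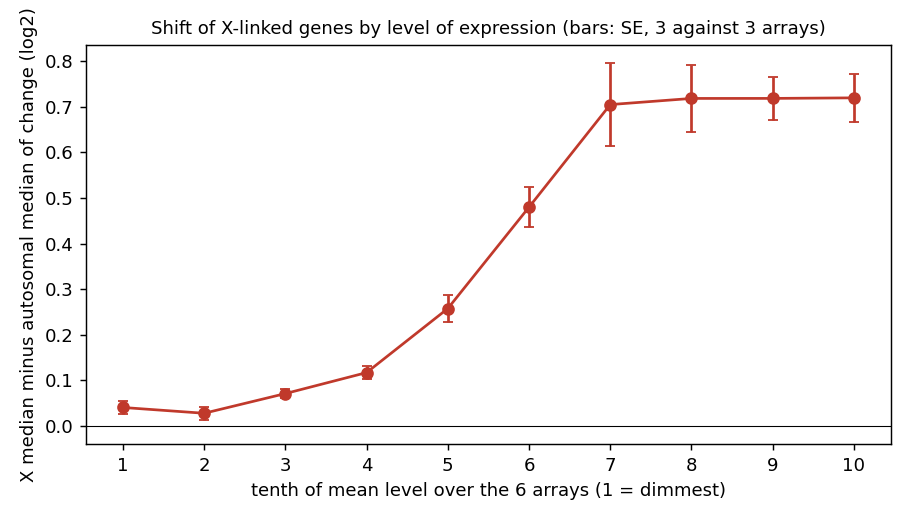
Median change of X-linked genes minus that of autosomal genes (log2) in 10 equal classes of mean level, with SE over 3 against 3 arrays. The shift is 0.04 in the dimmest class and levels off at about 0.72 in the 4 brightest.

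The brightest X-linked genes show the change at the top of the scale. The methionine cycle gene sams-1, which makes the methyl donor of the cell, read 13.18, 13.29 and 13.22 against 12.20, 12.37 and 12.19, a rise of 0.97 (SE 0.09) that its other 2 probe sets gave as 0.87 and 0.77. The gene apl-1, related to the amyloid precursor protein, rose by 0.82 (SE 0.11) and pab-2, a poly(A)-binding protein, by 0.81 (SE 0.11), although the other probe sets of pab-2 ranged from -0.25 to 0.79. The actin gene act-4 (0.74, SE 0.14), the alpha-spectrin gene spc-1 (0.57, SE 0.10) and the protein disulphide isomerase gene pdi-6 (0.55, SE 0.10) followed. The other probe set of pdi-6 read 0.22. For spc-1 the other probe sets read -0.06 and -0.41, so its rise rests on the probe set kept.

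The X-linked rises with the smallest p, among genes with a symbol that is not a sequence name and a probe set not marked as matching several transcripts, lay well above the median of 0.48 for X. Zig-3, a secreted protein with immunoglobulin domains, was measured at 8.87, 9.04 and 9.25 against 6.40, 6.52 and 6.33, which is 6.23-fold higher (2.64, SE 0.12). Nas-38, an astacin metalloprotease, gave 8.91, 9.15 and 8.74 against 6.29, 6.53 and 6.17 (2.60, SE 0.14). In both genes the lowest sdc-2 array stood over 2 log2 units above the highest control. The branched-chain aminotransferase gene bcat-1 rose by 2.17 (SE 0.10), and by 0.80 on its other probe set. The syntaxin gene syx-2 (1.75, SE 0.11), the amino acid transporter gene aat-3 (1.502, SE 0.09), egrh-1, a zinc-finger factor of the EGR class (1.45, SE 0.09), and the phosphofructokinase gene pfk-1.1 (1.41, SE 0.09) came next. Another probe set of syx-2 read 1.22 and of pfk-1.1 1.23, but that of egrh-1 read 0.26.

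A small set of X-linked genes went the other way or stayed level. The collagen gene col-165 read 12.03, 11.92 and 12.004 against 13.01, 13.07 and 12.84, a fall of 0.99 (SE 0.10, adjusted p = 0.0004), and another collagen gene, col-172, fell by 0.96 (SE 0.14). Txdc-12.2, a thioredoxin-domain protein, fell by 0.98 (SE 0.09), ddr-1, a discoidin-domain receptor, by 1.11 (SE 0.13) and vhl-1, the ubiquitin ligase subunit that marks HIF-1 for degradation, by 0.76 (SE 0.13). The gene mff-1, for a mitochondrial fission factor (-0.65, SE 0.12), svh-5 (-0.69, SE 0.11) and sym-1, a secreted leucine-rich repeat protein (-0.50, SE 0.09, but 0.11 on its other probe set), completed the 8 falls named by the same rule. The 6 X-linked genes chosen for a change nearest 0, attf-5, bbln-1, dhcr-24, dpf-2, gfi-3 and lgl-1, lay between -0.02 and 0.02 with SEs of 0.09 to 0.14. For lgl-1, a cell polarity gene, the 3 sdc-2 arrays read 9.10, 9.05 and 9.12 and the controls 8.98, 9.07 and 9.17, yet its other probe set gave 0.68, and that of attf-5 gave 0.70.

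Some autosomal genes changed by more than any of the X-linked genes named above, although the largest rise of all was X-linked: C45B2.2, named after its values were seen, gave 10.79, 10.81 and 10.54 against 5.86, 6.05 and 5.89 (4.78, SE 0.11). The cystatin gene cpi-1, an inhibitor of cysteine proteases, was measured at 9.92, 9.74 and 10.33 against 5.84, 6.02 and 5.81 and was 17.2-fold higher (4.11, SE 0.15, adjusted p = 1e-05). Control levels of C45B2.2 and cpi-1 lie below the medians of 35 sperm protein genes on the same arrays (6.05, 6.09 and 6.13). Whether they exceed background was not tested, so the sizes of these rises are uncertain. Dbd-13 gave 12.91, 12.82 and 13.04 against 8.24, 8.91 and 8.20 (4.47, SE 0.19), grl-21, of the ground-like family related to hedgehog proteins, 10.51, 10.34 and 10.49 against 6.74, 6.58 and 6.42 (3.87, SE 0.11), and srlf-34 10.01, 9.77 and 9.59 against 6.32, 6.39 and 6.47 (3.40, SE 0.12). In each of these 4 genes the lowest sdc-2 array lay over 3 log2 units above the highest control. The poly(U) polymerase gene pup-2 (1.92, SE 0.14), the zinc transporter gene zipt-1 (1.56, SE 0.11) and fipr-2 (1.31, SE 0.09) also rose, and the other probe sets of pup-2 (0.91 and 0.59) and zipt-1 (0.80) had the same sign.

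Among the autosomal falls, atg-9, a membrane protein of autophagy, read 7.46, 7.09 and 7.20 against 9.34, 9.62 and 9.49, which is 4.70-fold lower (-2.23, SE 0.12). The alcohol dehydrogenase gene adh-1 gave 7.71, 7.52 and 7.76 against 9.61, 9.61 and 9.46 (-1.89, SE 0.10). Anc-1, the giant protein that anchors nuclei, fell by 1.78 (SE 0.11), and 1 of its other 5 probe sets fell by 2.18 while the remaining 4 lay between -0.28 and 0.02. The cyclophilin gene cyn-6 (-1.54, SE 0.11), dct-18 (-1.46, SE 0.11), pptr-1, a regulatory subunit of protein phosphatase 2A (-1.39, SE 0.10), and kxd-1 (-1.21, SE 0.09) followed, each with all sdc-2 arrays below all controls. After re-centring the changes of these genes ran from -1.95 for atg-9 to -0.93 for kxd-1.

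Along the X chromosome the rise was present in every stretch. In 10 classes of equal gene number by order along X, the median change of genes above the median level lay between 0.37 and 0.57, and 25.4% to 43.2% of all genes in a class rose. The longest run of neighbouring measured genes that all rose held 10 genes on X, eat-20, olrn-1, lron-3, dyn-1, K09A9.6, gas-1, usp-33, ent-2, rab-14 and nipi-3, with changes from 0.47 for K09A9.6 to 2.05 for eat-20. The dynamin gene dyn-1 in this run rose by 1.41 and the kinase-like gene nipi-3 by 1.27. On the autosomes no run of rises was longer than 4, while chromosome V held a run of 8 falls that includes num-1 (-0.38), the mitochondrial ribosomal gene mrps-12 (-0.84), exos-7 (-0.68), fkb-6 (-0.72) and ndua-1 (-0.44). Gene order came from a reference table whose assembly need not be that of the array, so positions are not given.

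Autosomal genes fell more near chromosome ends than in the middle, a contrast looked at after the values by gene order had been seen. With the outer 20% of genes at each end called arms and the middle 40% centres, arms had a median change of -0.32 and centres of -0.13. The arm-minus-centre difference was -0.19 (SE 0.05, exact p = 0.1), and it was -0.24, -0.19, -0.15, -0.27 and -0.12 on I, II, III, IV and V, with an exact p of 0.2 on V and 0.1 on the others. In the arms 41.5% of genes fell and 7.86% rose, and in the centres 26.8% fell and 14.7% rose. Arms held dimmer genes (mean level 8.53 against 9.18), but the difference was -0.19 also when genes were compared with others of the same level or of the same length and number of probe sets. On X, the same contrast gave -0.12, around medians that were positive in both regions. It was -0.11 relative to autosomal genes of the same level and -0.07 relative to those of the same length and number of probe sets.

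**Figure D3:**
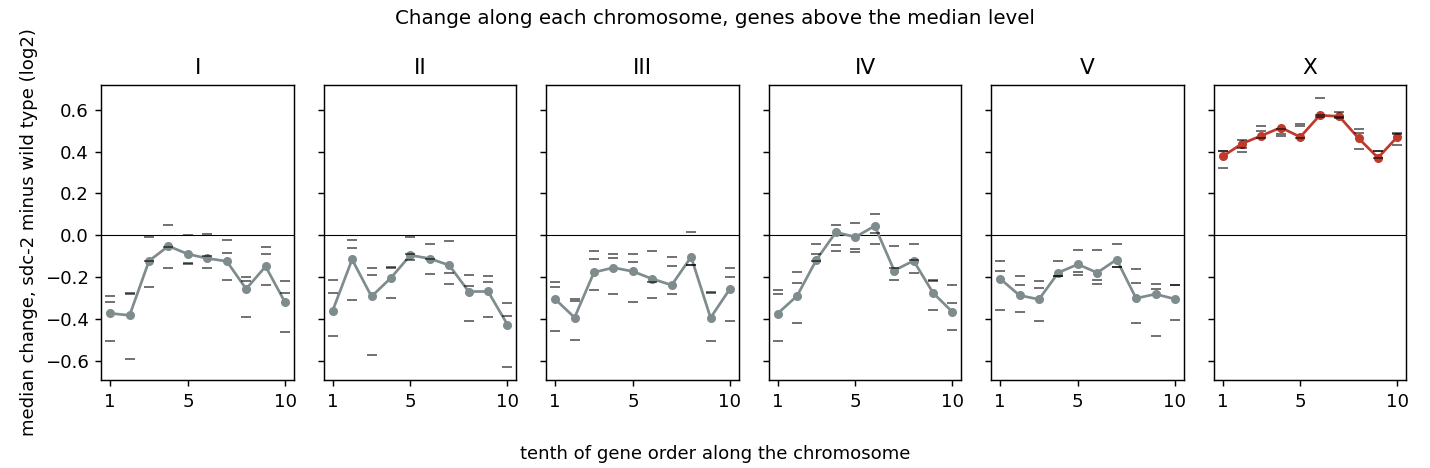
Median log2 change of genes above the median level in 10 classes of gene order along each chromosome; dots joined by lines are group differences and dashes are the 3 sdc-2 arrays against the control mean. Every class of X lies between 0.37 and 0.57, and on the autosomes the ends lie below the middle.

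The change of a gene also moved with how it was measured. Among genes above the median level, autosomal genes with a single probe set had a median change of -0.28 (SE 0.06) and those with several, of which the brightest was kept, 0.10 (SE 0.02). X-linked genes had medians of 0.33 and 0.83 in the same classes, so the X shift was 0.61 (SE 0.06) with 1 probe set and 0.74 (SE 0.07) with several, each with an exact p of 0.1. Genes with several probe sets supplied 613 of the 992 autosomal rises and were 2415 of the 14750 autosomal genes, and in only 86 of those 613 did every probe set rise. Their other probe set had the sign of the rise in 49.3% of cases and was called in the opposite direction in 106, against 85.0% and 15 for the 408 X-linked rises with several probe sets, and 81.7% and 10 for the 409 autosomal falls. Autosomal rises of genes with several probe sets are therefore the calls that rest most on the probe set kept.

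Gene length moved with the change too. In 5 classes of the span of the gene, the shortest autosomal class had a median of -0.40 (SE 0.06) and 49.9% of it fell, while the other 4 classes lay between -0.19 and -0.10. X-linked genes went from 0.18 in the shortest class to 0.68 in the longest, and the X shift was 0.59, 0.47, 0.62, 0.68 and 0.78 from short to long. Within genes of a single probe set the longest class gave an X shift of 0.65 and the shortest one of 0.59. The part of length and probe design in any result was not tested, and medians relative to autosomal genes of the same length and probe set class are given beside the groups below whose members fell or rose mostly one way, over their members above the median level.

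**Figure D4:**
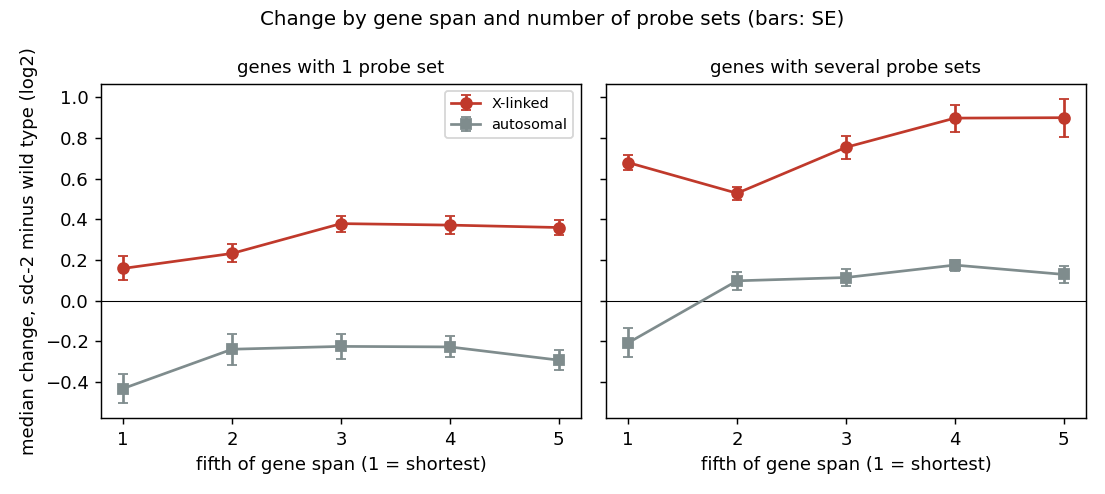
Median log2 change of X-linked (circles) and autosomal (squares) genes above the median level by class of gene span, for genes with 1 probe set (left) and several (right), with SE over 3 against 3 arrays. X-linked medians lie above autosomal ones in all 10 pairs, and both lines are lower with 1 probe set.

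Of 26 messages that mothers load into the egg and that act in early embryos, 9 rose and 1 fell, with a median change of 0.29. All are autosomal and 24 lie above the median level, where 12% of autosomal genes rose and 32.7% fell. Re-centred, 16 rose, and relative to autosomal genes of like length and probe sets the median was 0.44. The cytoplasmic polarity gene mex-6 read 11.37, 11.32 and 11.52 against 10.44, 10.04 and 10.57 (1.05, SE 0.14), its relative mex-5 rose by 0.98 (SE 0.15) and spn-4, an RNA-binding protein, by 0.95 (SE 0.12), whereas mei-1, the katanin of the meiotic spindle, fell by 0.63. Summed over the list, linear levels were 35541 to 41308 in the sdc-2 arrays and 25774 to 29081 in the controls. Of 22 cuticle genes of late embryos and larvae, 2 rose and 9 fell, with a median of -0.32, but after re-centring 4 rose and 4 fell with a median of -0.04, and relative to like genes the median was -0.10, so the fall of that list depends on the scaling. The furrow collagen genes dpy-2 (10.41, 10.44 and 10.39 against 11.52, 11.64 and 11.71), dpy-3 and dpy-7 fell by 1.21, 1.13 and 1.05, the last 2 of these X-linked. Summed levels of the 22 genes were 63618 to 64677 against 79440 to 80046. In both lists the groups did not overlap in summed levels, which bright members dominate, nor in the mean log2 level of the list per array, but they did overlap in its median. The part of a difference in stage in the other results was not tested, and in whole-embryo RNA fewer cells of a type and less RNA per cell cannot be told apart.

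Most lists of tissue markers held both rises and falls in the values as deposited. Most members of the muscle, neuronal, epidermal, germline, intestinal and pharyngeal lists lie above the median level. Of all genes above it, 56.6% rose on X and 12% on autosomes, and 3.68% and 32.7% fell. Of 32 muscle genes, all above that level, 10 rose and 6 fell. The rises were 6 of 11 X-linked members and 4 of 21 autosomal ones, and all 6 falls were autosomal. The X-linked rises and the autosomal falls were near the shares above. Up were tnt-2 (0.96) and tnt-3 (0.84), troponin genes on X, and down were the autosomal myosin gene myo-3 (-1.14) and unc-95 (-1.16). Of 34 neuronal genes 6 rose and 4 fell. The X-linked exocytosis gene unc-18 rose by 1.34 (11.31, 11.84 and 11.64 against 10.30, 10.34 and 10.14), and the autosomal mec-12, an alpha-tubulin of touch neurons, fell by 1.39. Epidermal genes showed 6 rises and 4 falls of 20, led by the nuclear receptor gene nhr-25 on X (1.16, SE 0.13) and the junction gene ajm-1 on X (0.99, SE 0.11, with other probe sets from -0.58 to 0.91). Germline genes showed 6 rises and 3 falls of 27, intestinal genes 4 rises and 1 fall of 14 and 2 of 13 pharyngeal genes fell. Re-centring moved the rises and falls to 16 and 4 in muscle, 11 and 3 in neurons, 12 and 3 in the germline and 6 and 1 in the intestine, and gave 12 rises in the epidermis and 5 in the pharynx, so the balance of these lists depends on the scaling. In the values as deposited none of the 35 genes of sperm proteins was called by limma or reached an unadjusted p under 0.05. Of those 35 genes, 32 lie below the median level, where 94.8% of all genes were not called.

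The most one-sided fall was in the mitochondrial ribosome, which translates the few proteins encoded by mitochondrial DNA. Of its 59 measured nuclear genes 45 fell and none rose (none also at an unadjusted limma p under 0.05, and 1 re-centred), with a median change of -0.65. All are autosomal and 56 lie above the median level, where 32.7% of autosomal genes fell. The shortest class of gene span, in which 49.9% of autosomal genes fell, held 31 of them. Mrpl-41 read 8.51, 8.03 and 8.48 against 9.70, 9.80 and 9.81 (-1.43, SE 0.14) and mrpl-17 8.64, 7.90 and 8.46 against 9.53, 9.59 and 9.75 (-1.29, SE 0.18). The median stayed below 0 after re-centring (-0.37, 34 falls) and relative to autosomal genes of like length and probe sets (-0.39, over the 56 members above the median level), and 36 to 46 members fell when any 1 array was left out. Splicing factor genes had 27 falls and 2 rises of 49, and a median of -0.46, with 17 falls without control C, where 32.7% of autosomal genes above the median level fell. Re-centred, 11 rose and 15 fell with a median of -0.18, and relative to like genes the median was -0.29. The small nuclear ribonucleoprotein gene snrp-3 (-1.39, SE 0.13) and sftb-2, of the branch-site complex (-1.33, SE 0.19), led its falls.

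Histone and cytosolic ribosome genes had many falls and no rise in the values as deposited. The shortest class of gene span held 68 of the 71 ribosomal and 21 of the 26 histone genes. In that class 49.9% of autosomal genes fell, and the counts of falls in both lists lie near that share. Of 26 histone genes 14 fell and none rose, at an adjusted or unadjusted limma p under 0.05, though 2 rose re-centred (median -0.40, -0.12 re-centred and -0.23 relative to like genes), with his-41 at 10.07, 9.87 and 10.15 against 11.06, 11.32 and 11.32 (-1.21, SE 0.12). The X-linked members his-38 and his-24, a linker histone, fell by 0.79 and 0.50, and 19 of the 26 have probe sets that may match several histone transcripts. Of the 71 genes of the cytosolic ribosome 35 fell and none rose (none also at an unadjusted limma p under 0.05, and 4 re-centred), with a median of -0.29 that became -0.01 on re-centring and 0.04 relative to autosomal genes of like length and probe sets. Falls in that list numbered 17, 16 and 15 without control A, B or C. Rps-10 (-0.79, SE 0.10) and rps-27A (-0.78, SE 0.09) changed most.

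Proteasome genes had 13 falls and 1 rise of 33, with a median of -0.31 that was -0.02 re-centred and 0.04 relative to like genes. That count is near the 32.7% of falls among autosomal genes above the median level, where 32 of the 33 lie. Genes of the respiratory chain had 17 falls and 3 rises of 39, with a median of -0.22 that turned to 0.06 on re-centring (6 rises and 8 falls) and was -0.04 relative to like genes. The copper chaperone gene cox-17 read 7.43, 6.88 and 6.92 against 8.69, 8.70 and 8.78 (-1.64, SE 0.15), and the X-linked succinate dehydrogenase gene sdha-1 rose by 0.88 (SE 0.09). Genes of lipid metabolism had 38 falls and 10 rises of 125, with a median of -0.09. Re-centred, that median was 0.19, with 29 rises and 24 falls, and relative to like genes it was -0.11. Above the median level 31 of 62 autosomal lipid genes fell and 6 rose, where 32.7% and 12% of such autosomal genes did. The median of these 62 was -0.55, and the autosomal lipid genes stood at -0.32 relative to like genes. The enoyl-CoA hydratase gene ech-4 (-1.72, SE 0.19) and the lipid-binding far-3 (-1.80, SE 0.15) fell, and the desaturase gene fat-2 (1.496, SE 0.16) rose. Of 128 cuticle collagen genes 27 fell and 2 rose, with a median of -0.11 that was 0.17 re-centred, with 10 rises and 17 falls, and -0.04 relative to like genes. Among the 18 on X none rose and 2 fell (none and 4 at an unadjusted limma p under 0.05), where 36.4% of all X-linked genes rose.

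Gene groups of the cell surface and of signalling are given by chromosome class, to be read against all genes above the median level, of which 56.6% rose on X and 12% on autosomes and 3.68% and 32.7% fell. Counts are over all members, and 2 of 17 tetraspanin, 8 of 25 innexin and 5 of 38 immunoglobulin-domain genes lie below that level. Of 7 X-linked tetraspanin genes, for membrane proteins with several spans, 6 rose and their median was 0.85, and of the 10 autosomal ones 1 rose and 2 fell. Tsp-20 (10.11, 10.11 and 10.19 against 8.88, 9.25 and 9.01, a rise of 1.09) and tsp-14 (1.05) led the X-linked rises, and tsp-10 on II fell by 1.13. Innexin genes, for gap junction channels, had 5 rises among 6 X-linked members and 5 falls and no rise among 19 autosomal ones, of which 2 rose at an unadjusted limma p under 0.05. Unc-9 gave 11.71, 12.21 and 11.98 against 10.22, 10.68 and 10.00 (1.67, SE 0.19), inx-3 rose by 0.63 and inx-2 by 0.58, and the autosomal inx-7 fell by 0.73. Autosomal members of the 2 groups had medians of -0.14 and -0.21, which turned to 0.14 and 0.07 on re-centring.

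Immunoglobulin-domain surface proteins, many of them guides for axons, showed 12 rises and 1 fall among 18 X-linked genes, and 3 rises and 3 falls among 20 autosomal ones. Wrk-1 (1.41, SE 0.17), the receptor kinase gene ver-3 (1.201, SE 0.09), syg-1 (0.97, SE 0.10), rig-1 (0.90), ncam-1 (0.80) and the Robo receptor gene sax-3 (0.71) rose beside zig-3, and zig-6 fell by 0.41. The other probe set of wrk-1 read 0.38. Of 43 X-linked genes of ABC and solute transporters, a list without the amino acid transporters, 21 rose and none fell, at an adjusted or unadjusted limma p under 0.05, and of 123 autosomal ones 14 rose and 18 fell. All 21 rises were among the 28 X-linked transporter genes above the median level. Of the 65 autosomal ones above it 12 rose and 14 fell. The glutamate transporter gene glt-1 (1.57, SE 0.15), the monocarboxylate transporter gene mct-4 (1.49, SE 0.14), mrp-6 (1.45, SE 0.12) and the cation transporter gene cdf-1 (1.37, SE 0.12) were among the rises. Nuclear hormone receptor genes had 12 rises and 1 fall of 23 on X, and 9 rises and 32 falls of 231 on autosomes, where 17.5% of all autosomal genes fell. Above the median level 11 of 15 X-linked receptor genes rose. Of the 84 autosomal ones above it 9 rose and 26 fell, near the 32.7% of all autosomal genes of that level. Re-centred, the 254 receptor genes had 80 rises and 11 falls. On X, nhr-45 (1.43), nhr-1 (1.25) and nhr-25 (1.16) rose and nhr-173 fell by 0.58. The autosomal nhr-68 fell by 1.11.

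Neuropeptide genes of the flp and nlp classes had 13 rises and no fall among 28 X-linked members, and no fall at an unadjusted limma p under 0.05, where 36.4% of all X-linked genes rose. All 13 were among the 18 X-linked members above the median level, where 56.6% of X-linked genes rose. The median change of these 18 was 0.68. Flp-7 read 7.91, 8.41 and 8.46 against 6.86, 7.36 and 6.75 (1.27, SE 0.20), and nlp-1 (1.22), flp-5 (1.18) and flp-19 (1.02) rose by similar amounts. On the autosomes 5 of 55 rose and 4 fell, where 6.73% and 17.5% of all autosomal genes did. Of the 5 rises, 4 are the neighbours nlp-27, nlp-28, nlp-29 and nlp-30 on V, which encode small peptides that the epidermis makes after infection or wounding. Nlp-29 gave 9.53, 9.66 and 10.08 against 6.56, 7.08 and 6.62 (3.00, SE 0.18), and nlp-30, nlp-28 and nlp-27 rose by 0.91, 0.98 and 0.84. The probe sets of these 4 may match each other's transcripts, so how many of them rose separately is uncertain.

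Among 55 antimicrobial genes, of which 16 lie above the median level, 10 rose and 3 fell, where 10.8% of all genes rose and 15.4% fell. Cnc-4, a caenacin of the same epidermal response as nlp-29, gave 9.66, 9.07 and 10.05 against 6.29, 6.60 and 6.84, which is 8.09-fold higher (3.02, SE 0.24), while cnc-3 fell by 1.42 (SE 0.25). The lysozyme gene lys-1 read 9.56, 9.80 and 9.89 against 8.22, 8.44 and 7.41 (1.73, SE 0.24), with control C lowest. Of the 10 rises, 5 were X-linked, among them fipr-21 (1.204, SE 0.12) and spp-14 (1.00, SE 0.13). The 1275 chemoreceptor genes, of which 10 were above the median level, gave 5 rises and 1 fall. Of all genes below that level 2.58% rose and 2.64% fell. Among 39 chromatin genes, all above the median level, 13 rose and 12 fell. Of the 7 on X 4 rose and 1 fell, where 56.6% of X-linked genes of that level rose. Of the 32 autosomal ones 9 rose and 11 fell, where 12% and 32.7% of autosomal genes of that level did. Several probe sets measured 25 of the 39, and of autosomal genes of that level with several, 30.2% rose and 19.5% fell. Relative to autosomal genes of like length and probe sets, the autosomal chromatin genes had a median of -0.04. The X-linked histone demethylase gene jmjd-3.3 rose by 2.05 (8.35, 8.995 and 8.65 against 6.62, 6.59 and 6.64), with -0.09 and 0.80 on its other probe sets, and the heterochromatin gene hpl-2 fell by 1.15 (SE 0.18), with -0.57 to -0.46 on its other 4 probe sets.

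**Figure D5:**
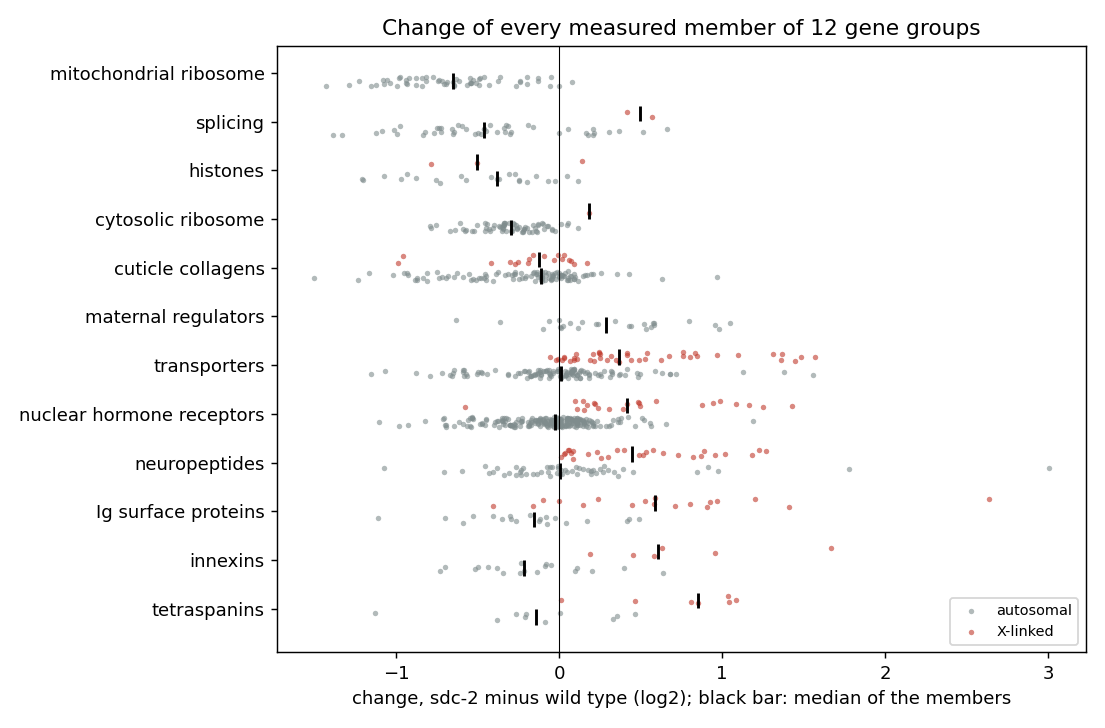
Change (log2, sdc-2 minus wild type) of every measured member of 12 gene groups, with X-linked members in red, autosomal members in grey and black bars for medians. X-linked tetraspanins (median 0.85) lie to the right of autosomal ones (-0.14), and the mitochondrial ribosome (-0.65) lies to the left of 0.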

How the data were processed

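The authors deposited a log2 value for each probe set and array, and the submitters' processing notes name RMA; its version, genome build and scan settings are not given in the sources used here. Arrays have no read depth, and their number limits the precision. Only the 6 arrays of the comparison were used. Of 22548 probe sets, those with a single gene in the array annotation (20766) were used, leaving out 887 with several and 895 with none, and the brightest of a gene's probe sets stood for it. Chromosome and gene order came from the RefSeq gene table (assembly WBcel235) for all 17118 genes. They were joined by gene identifier, with the symbol used where an identifier had no match. Gene span came from the same table by symbol. Group means were fitted in limma (3.58.1, R 4.3.3) (4 residual and 4.19 prior degrees of freedom), two-sided, with Benjamini-Hochberg adjustment, and the fit was tested on simulated data. Medians per array were compared by exact permutation of the 6 arrays. Probe sets ending in _s_at or _x_at, kept for 4231 genes, may match several transcripts.

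The members and all 53 gene lists were chosen with earlier results of these data known. Named were all sex determination and dosage compensation genes, the 8 rises and 8 falls of smallest p on X and on autosomes with a change of at least 1 (X falls 0.5) and non-overlapping groups, the 6 brightest and 6 least changed X-linked genes (these 2 rules took only genes with a symbol other than a sequence name and a probe set not ending in _s_at or _x_at), and the 2 largest rises and falls per list; other genes were named after their values were seen, and 1 of the autosomal falls is not reported here. The letters are not stated to pair, so they were not used as a block in the main fit. Deviations of same-lettered arrays correlated at 0.054 (A), 0.252 (B) and 0.188 (C), and those of arrays with different letters at -0.30 to 0.21. Alternatives covered scaling, probe set choice, thresholds, weights and leaving out each array.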

Additional observations from a re-analysis of the deposited data

How the results depend on the processing

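Re-centring each array on the median of its autosomal genes above the median level gave 7547 changed genes (6179 up and 1368 down). There were 1627 X-linked rises and 15 falls, and 4544 autosomal rises and 1353 falls. Re-centring left 7 of the gene lists with a median below 0, where 24 were below 0 as deposited, 33 with autosomal members only and 8 with X-linked members only. At an adjusted p under 0.01 there were 2607 changed genes (1129 up, 1478 down), with 24 X-linked falls, 536 autosomal rises and 1454 autosomal falls. Asking for a change of at least 1 left 748 (368 up, 380 down), with 246 X-linked rises, 3 X-linked falls, 122 autosomal rises and 377 autosomal falls. Autosomal rises numbered 645 with the mean of a gene's probe sets and 465 with every probe set called alike. With no limit on level the X shift was 0.297 and the chromosome shifts were -0.066 (I), -0.039 (II), -0.098 (III), -0.025 (IV), -0.0077 (V) and 0.261 (X). By gene span, a setting chosen like those by probe set number after seeing the data, the X shift was 0.586, 0.469 and 0.782 in the shortest, the next and the longest class.

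Leaving out 1 array at a time gave 3100 to 4452 changed genes, 1288 to 1997 up and 1812 to 2455 down, 639 to 902 X-linked rises and 30 to 51 falls, 648 to 1094 autosomal rises and 1781 to 2407 falls. Counts of falls ranged from 15 to 33 in ribosomal and 17 to 28 in splicing genes, and the X shift from 0.63 to 0.71. With the replicate block 4930 genes were called, 4363 of the 4482 among them, and the X shift was 0.675; the letters share only a label. Of the 226 named genes called, 174 kept call and direction in every alternative. Signs turned for arl-8 (-0.0026), mlt-11 (-0.95) and mup-4 (0.15) when _s_at and _x_at probe sets were left out, for attf-5 (0.34), erm-1 (-0.00025), mlt-11 (-0.079), nars-1 (-0.20) and rnp-7 (-0.20) with the mean of probe sets, and for pha-1 (0.00011) re-centred; beyond the alternatives' own construction the cause was not tested.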
